A study of Drosophila melanogaster with 3 samples.

Results

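Chromatin immunoprecipitation sequencing (ChIP-seq) peaks of FoxL1 (fd64A) were described at 10 other forkhead genes of Drosophila melanogaster: CHES-1-like, jumu, FoxK, bin, slp1, slp2, croc, foxo, FoxP and fd59A. The genes were taken by symbol from the forkhead family, with earlier results of these data known, out of 13945 protein-coding genes on 6 chromosome arms. A summit, the highest point of a peak, was assigned to a gene where it lay between 2000 bp upstream of the most upstream transcription start site (TSS) and the end of the gene. All libraries came from whole embryos 8 to 14 hours old, both sexes together, of 1 transgenic strain in which FoxL1 carries a C-terminal green fluorescent protein (GFP). They form 1 group of 3 biological replicates, and there is no second condition. The free text of the labels calls the libraries input controls, while their assay and antibody labels mark them as immunoprecipitations, as which they were read here.

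Forkhead proteins share a winged-helix domain that binds DNA, and members of the family recognise closely related words of the type RTAAAYA (R is A or G, Y is C or T). A word of this kind therefore does not name the family member that binds it. In the fly these genes act in segmentation, in mesoderm and gut formation, in cell division of heart and neural precursors, and in growth control downstream of insulin. Peaks of a tagged forkhead factor at other forkhead genes bear on whether the family's regulators lie among its binding regions. A peak at a gene does not show that the gene is regulated.

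Each of the 3 relaxed replicate lists held 30000 peaks, as did the list of the pool. A shorter list, which the authors had thresholded by irreproducible discovery rate (IDR), held 1230 summits within 500 bp of a TSS and 1689 others. It was the strongest part of the pooled list by deposited signal, so a rank in the IDR list is also a rank in the pooled list. Leading peaks are the strongest of a replicate, as many as the IDR list holds. Replicates 1, 2 and 3 had 4964, 3017 and 1598 peaks of q under 0.05. In replicate 3 this is fewer than the leading peaks, so a leading peak there need not reach that q. The read depth is unknown. Signal is the authors' value and serves here to order and describe peaks of the same list. With 1 group no test was made, and the spread is that of the replicates.

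Of the 10 genes, 4 carried an IDR summit: CHES-1-like with 9, FoxK with 3, and jumu and bin with 1 each. This is 40% of the genes (95% Wilson interval 16.8 to 68.7, counting error only), against 16.9% of all protein-coding genes, and the interval reaches the background. Leading summits lay at 4, 4 and 3 genes in replicates 1, 2 and 3, or 3.67 ± 0.577 (mean ± SD, n = 3). The background shares were 16.9%, 17.2% and 16.2% of protein-coding genes. CHES-1-like, FoxK and jumu had a leading summit in all 3 replicates, as did 11.2% of protein-coding genes. The same 4 genes as in the IDR list had a pooled summit with q under 0.05 (background 16.3%). All 2784 pooled peaks of q under 0.05 are IDR peaks, so this count is not separate from the IDR count. Of the 10 genes, 8 had a relaxed pooled summit (background 68.5%). FoxP and fd59A had no pooled peak of any rank.

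**Figure D1:**
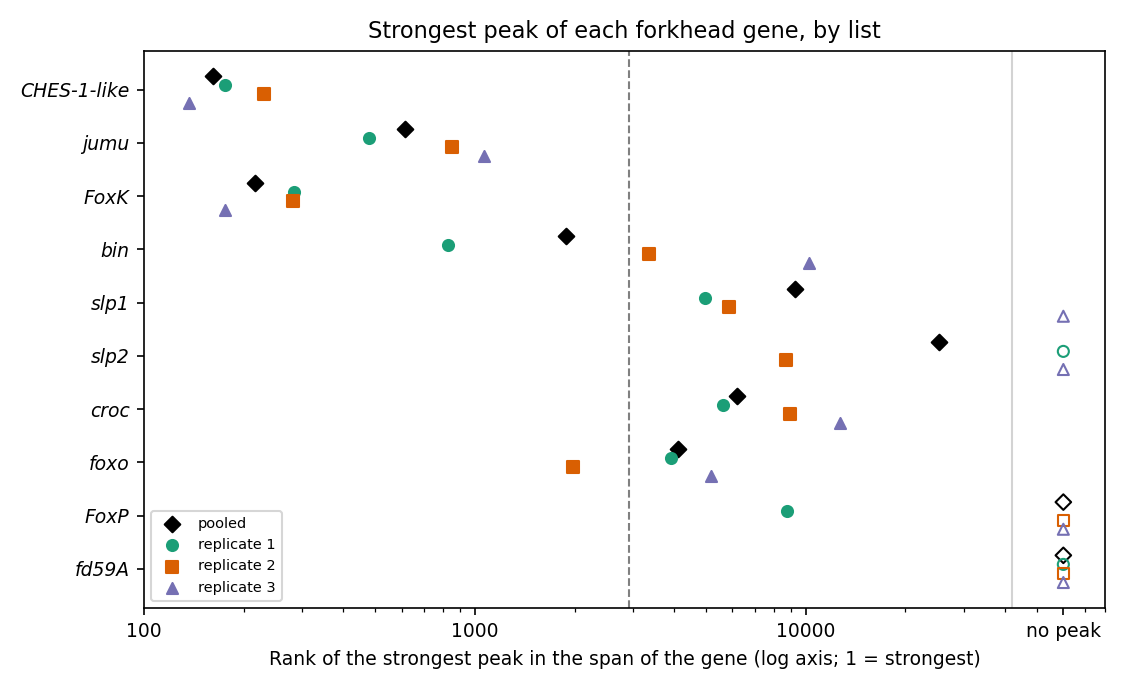
Rank of the strongest peak in the span of each gene (log axis, 1 is the strongest) in the pooled list and in each replicate; the dashed line marks the last rank of a leading peak and open symbols mark lists with no peak. CHES-1-like, FoxK and jumu lie left of the line in all lists, bin lies left of it in the pooled list and in replicate 1, and foxo in replicate 2.

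Over all protein-coding genes, the share with an IDR summit rose with span over the classes given here. Among the 10 genes, the number of summits followed no simple order of length. Spans of 20 to 40 kb held an IDR summit in 44.0% of 653 protein-coding genes, and CHES-1-like (29.0 kb) was the only gene of this class with 9 or more. Over all lengths 0.0502% of protein-coding genes held at least 9 IDR summits and 1.72% at least 3. The span of foxo, 33.0 kb and the longest of the 10, held none. Of the 3 genes with spans of 5 to 10 kb, FoxK (8.62 kb) and bin (5.83 kb) held a summit and FoxP (6.85 kb) did not, against 20.3% of genes of that class. None of slp1, slp2, croc and fd59A, all under 5 kb, held a summit, against 9.27% of genes of that class. At 13.4 kb, jumu fell in a class with 34.4%. In summits per 100 kb of span, FoxK stood at 34.8, CHES-1-like at 31.0, bin at 17.2 and jumu at 7.45. The values of bin and jumu rest on 1 summit each, and that of FoxK counts 2 overlapping peaks separately. In each of these classes of span the median protein-coding gene held 0 IDR summits.

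Forkhead words lay within 50 bp of 7 of the 14 summits. The 7 windows, reaching 50 bp to each side of the summit, are shown because they carry the word that forkhead factors are known to bind. The words are in capitals. Sequences are the plus strand of dm6, with the summit at the middle base, and a word on the minus strand therefore reads as its reverse complement. The windows lie at 3R:10350883-10350983 (jumu), at X:7698370-7698470, X:7705627-7705727 and X:7692660-7692760 (CHES-1-like), at 3L:11119936-11120036 and 3L:11120140-11120240 (FoxK) and at 3L:6989169-6989269 (bin). The rank is that of the peak in the IDR list.
jumu, rank 614: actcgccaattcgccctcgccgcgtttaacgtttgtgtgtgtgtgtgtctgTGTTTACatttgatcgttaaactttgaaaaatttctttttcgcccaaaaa
CHES-1-like, rank 765: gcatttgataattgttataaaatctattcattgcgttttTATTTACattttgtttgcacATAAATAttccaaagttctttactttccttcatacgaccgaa
CHES-1-like, rank 1161: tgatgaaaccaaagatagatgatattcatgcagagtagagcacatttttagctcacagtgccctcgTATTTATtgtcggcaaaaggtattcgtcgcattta
CHES-1-like, rank 2331: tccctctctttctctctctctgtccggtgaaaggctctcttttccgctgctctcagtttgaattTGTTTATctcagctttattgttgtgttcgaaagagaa
FoxK, rank 564: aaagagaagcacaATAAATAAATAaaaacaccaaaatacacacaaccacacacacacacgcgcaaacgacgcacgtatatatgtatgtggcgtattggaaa
FoxK, rank 2516: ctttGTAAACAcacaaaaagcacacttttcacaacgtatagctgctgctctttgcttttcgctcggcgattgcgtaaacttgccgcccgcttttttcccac
bin, rank 1882: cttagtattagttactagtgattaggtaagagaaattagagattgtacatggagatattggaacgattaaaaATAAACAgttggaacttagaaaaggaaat

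The word nearest to its summit was that of jumu, centred 4 bp away. Its letters are GTAAACA on the minus strand, the stricter forkhead word that 8.12% of all IDR summits carried. The same strict word lay 43 bp from the weaker FoxK summit of rank 2516. The CHES-1-like peak of rank 765 held words centred 8 bp and 12 bp from the summit, on either side of it. Those of ranks 1161 and 2331 held 1 word each, at 19 bp and 17 bp. The FoxK peak of rank 564 held a pair of overlapping ATAAATA words at 34 bp and 30 bp, and bin held 1 word at 25 bp.

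The strongest peaks of CHES-1-like and FoxK held no such word within 50 bp. Their windows, at X:7706967-7707067 and 3L:11118717-11118817, are shown for contrast, together with 2L:3832473-3832573, under the strong peak upstream of slp2 that is described below with the other peaks outside the spans.
CHES-1-like, rank 162: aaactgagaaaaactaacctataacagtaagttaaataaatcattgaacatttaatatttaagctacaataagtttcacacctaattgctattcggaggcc
FoxK, rank 216: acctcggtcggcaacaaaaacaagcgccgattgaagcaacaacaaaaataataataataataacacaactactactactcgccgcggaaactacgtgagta
slp2, rank 76: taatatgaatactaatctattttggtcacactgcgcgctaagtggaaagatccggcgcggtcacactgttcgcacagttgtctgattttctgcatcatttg

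The nearest RTAAAYA was centred 83 bp from the CHES-1-like summit of rank 162, 51 bp from the FoxK summit of rank 216 and 60 bp from the slp2 summit. The FoxK word thus crossed the edge of its window, and the slp2 word lay just outside its own. Within 100 bp the share of the 14 summits with a word was 71.4%, against 44.6% of all IDR summits. Within 50 bp it was 50% (95% Wilson interval 26.8 to 73.2) against 29.9% (872 summits of the IDR list), and the interval takes in the value of the whole list. Among IDR peaks stronger than the median of the list the shares lay close together, with a word at 4 of 11 member summits (36.4%) and at 33.6% of all. Of the 28 windows 500 bp to each side, 2 held a word (7.14%), against 16.5% around all IDR summits. The 3 strongest CHES-1-like summits held none within 50 bp, and 3 of its 9 held 1 or more. At jumu, FoxK and bin, 4 of 5 summits held a word. The median distance to the nearest word was 47 bp over the 14 summits and 124 bp over all IDR summits. Summits share a gene, and at FoxK a peak region, so these shares are descriptions of a few places.

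**Figure D2:**
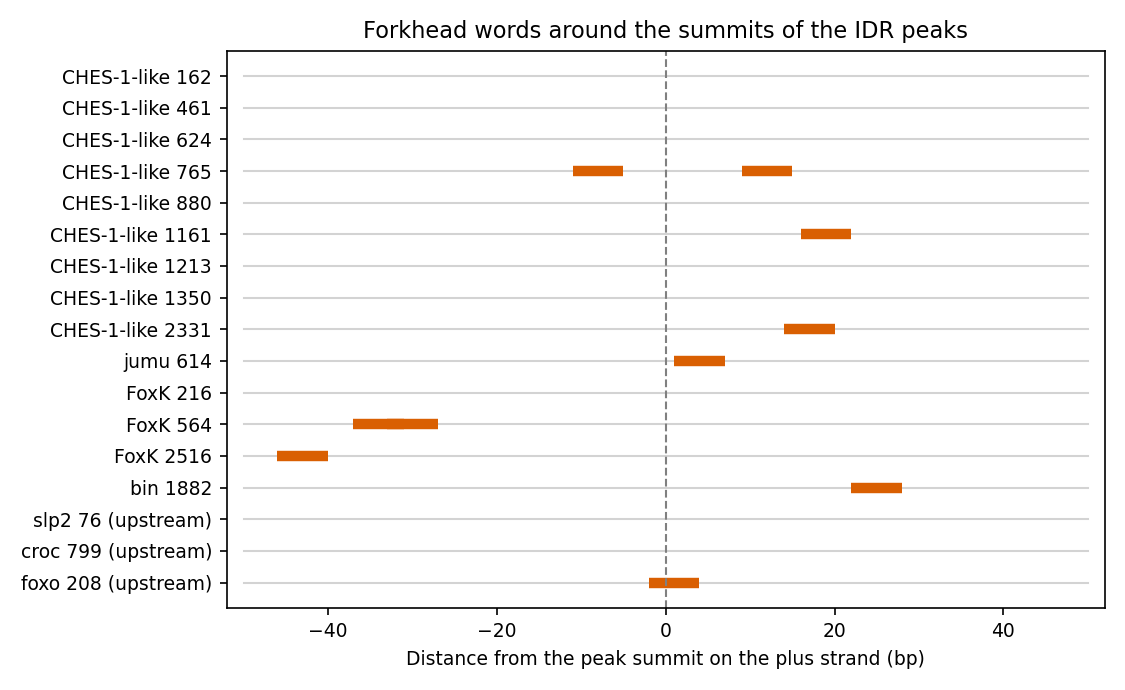
Position of RTAAAYA words (orange bars, 7 bp each, either strand) within 50 bp of the summits of the 14 IDR peaks in the spans and of the 3 upstream peaks; the number after each gene is the rank in the IDR list. Words lie at 8 of the 17 summits shown, nearest to the summit at foxo and jumu.

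Other words were searched in the same windows on both strands. The E-box CANNTG lay at 42.9% of the 14 summits and 43.3% of all IDR summits, the GAGA factor word GAGAG at 14.3% and 15.1%, and the GATA factor word WGATAA (W is A or T) at 21.4% and 16.4%. All 3 summits with a GATA word belonged to CHES-1-like (ranks 765, 1213 and 2331). The DREF word TATCGATA and the Zelda word CAGGTAG lay at none of the 14, which allows shares of up to 21.5% (upper 95% Wilson limit), against 0.891% and 0.651% of all IDR summits. Another form of the forkhead word, AYAAAYA, lay at 35.7% and 30.5%. It shares ATAAAYA with RTAAAYA, and all 5 member summits that carried it also carried RTAAAYA. It is therefore no separate search. The median GC content of the windows was 38.1%, against 38.6% over all IDR summits. The members' windows ranged from 26.7% at the CHES-1-like summit of rank 765 to 46.5% at the FoxK summit of rank 2516.

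CHES-1-like (FBgn0029504, X:7682338-7709385, minus strand) encodes a FoxN-type factor, known in fly embryos for a role with jumu in the divisions of heart progenitors. Its 9 IDR summits were spread over 18377 bp, from 142 bp to 18519 bp downstream of the most upstream TSS, with a median gap of 1976 bp and a shortest gap of 1340 bp. Replicates 1, 2 and 3 had 10, 9 and 8 leading summits in the span (mean 9 ± 1, SD, n = 3). The 10th leading summit of replicate 1 had rank 2771, near the limit of the leading peaks. Of the 9, 7 lay in introns and 2 at promoters, that is within 500 bp of a TSS. No IDR summit lay in the last part of the gene, beyond 18519 bp.

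The strongest CHES-1-like peak (X:7706842-7707137, signal 766, IDR rank 162) lay in an intron. It ranked 176, 230 and 137 in replicates 1, 2 and 3. The nearest TSS, 758 bp away, was that of lncRNA:CR43287, a non-coding gene on the other strand within the CHES-1-like intron, and the nearest TSS of CHES-1-like was 2054 bp away. The remaining 8 summits had a CHES-1-like TSS as the nearest one. The intronic peak X:7700300-7700519 had rank 461 and ranked 649, 456 and 346 in the replicates. The promoter peak at the most upstream TSS (X:7709041-7709444, summit 142 bp downstream) had rank 880 and ranked 787, 1485 and 830. The other promoter peak (X:7696844-7697247) lay 342 bp upstream of an internal TSS, with rank 1350 and replicate ranks of 1395, 2057 and 1360.

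Of the 9 CHES-1-like peaks, 8 overlapped a leading peak in all 3 replicates. The exception was the intronic peak X:7703537-7703940, of IDR rank 1213, which ranked 1144 and 782 in replicates 1 and 2 but 4528 in replicate 3. The peak of rank 2331 ranked 2491, 2046 and 2457, and its summit in replicate 1 was over 100 bp away. In replicate 3 the peak overlapping it did not reach a q under 0.05. The remaining 7 had a leading summit within 100 bp in all 3 replicates.

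By the density of summits in the IDR list and in the 3 replicates, the genes most like CHES-1-like among 2321 genes with a span of at least 10 kb were crp, ph-p and bmm. The measure was the Euclidean distance over these 4 densities, in summits per 100 kb. It was 6.72 for crp (cropped, a basic helix-loop-helix regulator), with 7 IDR summits and 8, 9 and 7 leading summits in replicates 1, 2 and 3. It was 7.33 for ph-p (polyhomeotic proximal, a Polycomb group gene), with 4 summits in each list. For bmm (brummer, a lipid storage lipase) it was 8.59, with 3 IDR summits and 4, 3 and 3 leading ones.

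**Figure D3:**
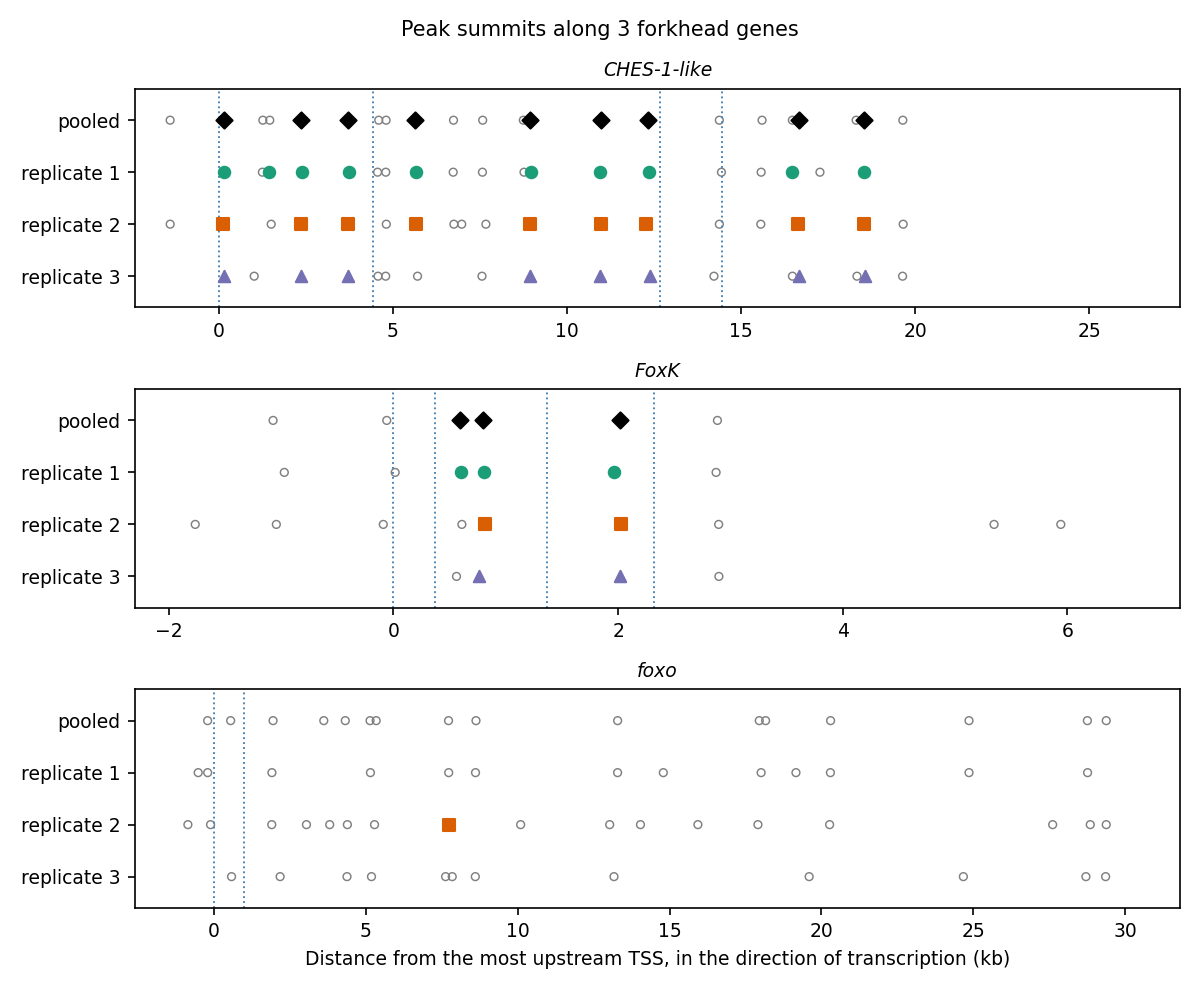
Summits along CHES-1-like, FoxK and foxo by distance from the most upstream TSS in kb; filled symbols are leading peaks, open grey circles are weaker relaxed peaks and dotted lines are annotated TSSs. Of the 9 leading pooled summits of CHES-1-like, 7 have a leading summit within 100 bp in all 3 replicates, while foxo has a single leading summit, in replicate 2.

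FoxK (FBgn0036134, 3L:11114169-11120783, minus strand) encodes a forkhead factor that acts in midgut differentiation downstream of Dpp signalling. All 3 IDR summits lay at promoters. The strongest (3L:11118660-11118891, signal 678, rank 216) lay 301 bp upstream of an internal TSS and ranked 283, 281 and 175 in replicates 1, 2 and 3. The peak 3L:11119784-11120187 (rank 564), 425 bp downstream of another TSS, ranked 521, 1280 and 401. The peak 3L:11119988-11120391 (rank 2516) overlapped it by 200 bp, with the summits 204 bp apart. Summits within 100 bp of that weaker one had ranks 2391, 7304 and 11073 in the replicates, so it was a leading peak only in replicate 1. Counting the overlapping pair as 1 place leaves 13 places at the 4 genes. Upstream of the first TSS of FoxK the span takes in mRpL2 and part of Ufd1, but no IDR summit lay there.

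The jumu gene (FBgn0015396, 3R:10350182-10361612) encodes a FoxN-type factor known for roles in asymmetric division of neural precursors and in heart progenitors. Its IDR peak (3R:10350859-10350960, signal 436, rank 614) lay in an intron, 751 bp downstream of the TSS. It ranked 479, 854 and 1065 in replicates 1, 2 and 3, with summits within 1 bp of each other relative to the TSS (750, 750 and 751 bp). A weaker intronic peak 6962 bp from the TSS had pooled rank 3525, outside the IDR list. It was a leading peak in replicate 1 alone, where its rank was 1226.

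The bin gene (biniou, FBgn0045759, 3L:6990622-6994447) encodes the FoxF-type factor of the visceral mesoderm. Its IDR peak (3L:6989017-6989420, signal 242, rank 1882) lay between genes, 1403 bp upstream of the TSS. It rested on replicate 1, where it ranked 828 and had a q of 0.000378. The strongest overlapping peak of replicate 2 ranked 3367 (q of 0.0622) and that of replicate 3 ranked 10185 (q of 0.473). Their summits lay 1571 and 1140 bp upstream of the TSS, and neither was within 100 bp of the IDR summit. Neither replicate 2 nor replicate 3 had a leading peak at the gene.

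**Figure D4:**
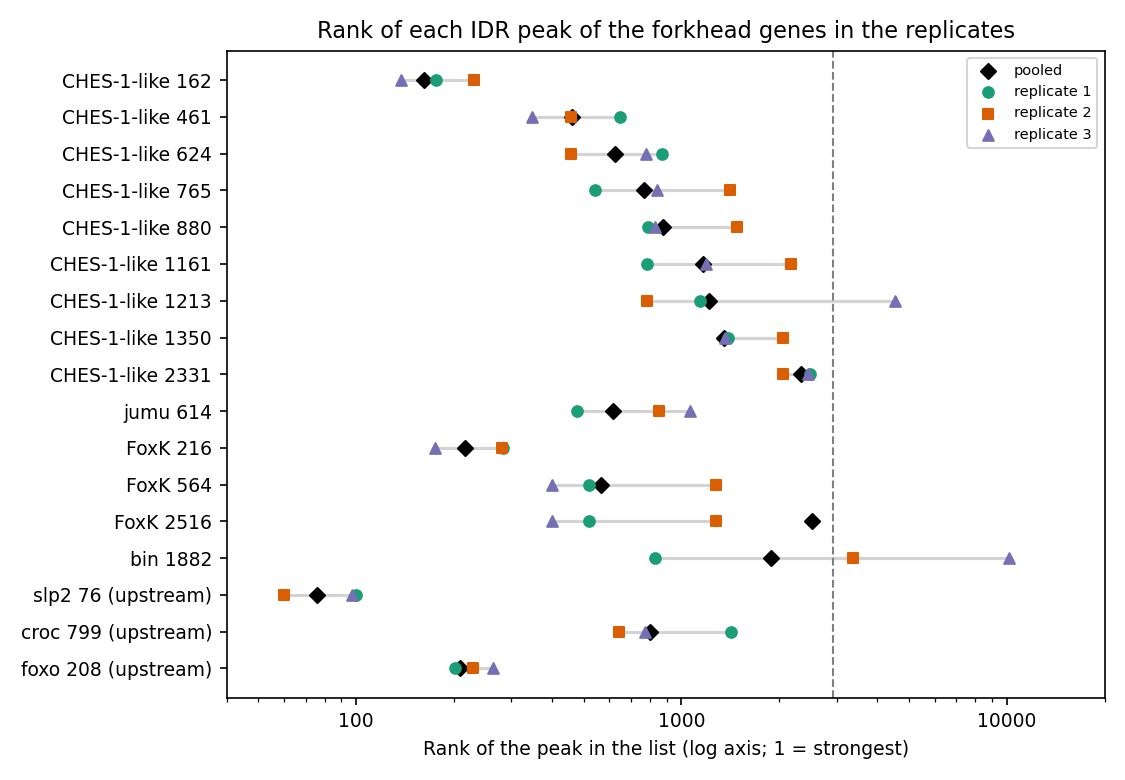
Rank (log axis, 1 is the strongest) of each IDR peak in the pooled list and of the strongest overlapping peak in each replicate, for the 14 peaks in the spans and the 3 upstream peaks; the number after each gene is the IDR rank and the dashed line marks the last rank of a leading peak. The bin peak has the widest range, from 828 to 10185, and both overlapping FoxK peaks meet the same replicate peaks.

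Counting the strongest overlapping peak, 12 of the 14 IDR summits had a leading peak in all 3 replicates (85.7%, against 57.8% of all IDR summits). The 12 include the FoxK peak of rank 2516, which meets only the replicate peaks of its stronger neighbour by this rule. With summits required to lie within 100 bp of each other it was 10 of 14 (71.4%, against 51.9%). The median rank of the 14 was 822, against 1460 for the whole list. Of the 14, 11 were stronger than the median of the list, and the replicate shares were not matched for strength. By position, 8 lay in introns (57.1%, against 41.9% of all IDR summits), 5 at promoters (35.7%, against 42.1%) and 1 between genes. None was classed as exonic, promoters being assigned first. The median distance to the nearest TSS was 754 bp, against 794 bp. The last IDR peak had a signal of 190. The nearest member summit inside that limit was the FoxK peak of rank 2516 (signal 207), and the nearest outside was a CHES-1-like peak of pooled rank 3002 (signal 187).

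Within the spans, the remaining 6 genes had only weak peaks or none. The foxo gene (FBgn0038197, 3R:14056945-14087978), which encodes the transcription factor inhibited by insulin signalling, had 16 relaxed pooled summits in its span, of which the strongest had rank 4098 and a q of 0.108. This intronic peak (3R:14064463-14064866) overlapped a leading peak of replicate 2 with rank 1977 and a q of 0.0159, but ranked 9072 and 5156 in replicates 1 and 3. In replicate 1 the strongest peak lay elsewhere, 212 bp upstream of the TSS, with rank 3904 and a q of 0.0250. The intronic place was thus the strongest of the span in replicates 2 and 3 and in the pool, and replicate 1 alone differed.

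The paired segmentation genes slp1 (FBgn0003430, 2L:3825675-3827099) and slp2 (FBgn0004567, 2L:3836840-3839185) are neighbours on the same strand. The slp1 promoter held a relaxed peak 39 bp upstream of the TSS of pooled rank 9248, of rank 4970 and 5849 in replicates 1 and 2, and no peak in replicate 3. The slp2 span held a peak of pooled rank 25187. The croc gene (crocodile, FBgn0014143, 3L:21474133-21476479), a FoxC-type gene of head development, had a promoter peak 362 bp upstream of the TSS of pooled rank 6190. The strongest peaks of its span ranked 5635, 8981 and 12697 in the replicates, and none of these reached a q under 0.05.

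Beyond the 2000 bp, however, slp2, croc and foxo each had an IDR peak 3331 to 4317 bp upstream of the TSS, in intergenic sequence and with the TSS of that gene as the nearest one. The slp2 peak (2L:3832382-3832640, signal 1001) had rank 76, above every peak within the spans. It ranked 100, 60 and 97 in replicates 1, 2 and 3, and lay between slp2, 4317 bp downstream of it, and the end of slp1, 5424 bp away. The foxo peak (3R:14053457-14053723, signal 692, rank 208) lay 3331 bp upstream and ranked 201, 228 and 263. The croc peak (3L:21479691-21480094, signal 378, rank 799) lay 3414 bp upstream and ranked 1421, 643 and 773. With 5000 bp upstream, 7 of the 10 genes held an IDR summit, against 22.6% of protein-coding genes. These peaks were looked for after the planned 5000 bp alternative had raised the count, and the nearest TSS does not show which gene a distal site serves.

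Of the 3 upstream peaks, foxo alone held a forkhead word within 50 bp of the summit, centred 1 bp from it. It is shown with the word in capitals, from 3R:14053564-14053664, because the word coincides with the summit in an AT-rich window of 30.7% GC. The croc window had 59.4% GC, and its nearest word was 950 bp away.
foxo, rank 208: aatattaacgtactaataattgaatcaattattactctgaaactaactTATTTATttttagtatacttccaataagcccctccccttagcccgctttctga

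FoxP (FBgn0262477, 3R:9726020-9730872), a gene of neural function and behaviour, had a relaxed peak in replicate 1 alone, of rank 8776 and a q of 0.130. The nearest IDR peak lay 931 bp beyond the end of the gene, had rank 1601 and was nearest to a TSS of hyd, which encodes a ubiquitin ligase.

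For the FoxD-type gene fd59A (FBgn0004896, 2R:22868159-22870706) no list held a peak in the span. The nearest IDR peak lay 13750 bp upstream, with rank 1414, nearest to a TSS of the ribosomal protein gene RpL23.

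In the family list of 17 forkhead genes, 6 held an IDR summit (35.3%, against 16.9% of protein-coding genes): the 4 above, fkh and FoxL1 itself. The fkh gene, which is required for salivary gland formation, had its strongest peak at rank 47, ranking 50, 44 and 54 in replicates 1, 2 and 3. FoxL1 had 1 IDR summit, of rank 852, 1924 bp upstream of its TSS. The remaining 5 (fd3F, fd19B, fd96Ca, fd96Cb and fd102C) held none, and their nearest IDR summits lay between 24875 and 201855 bp from the gene.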

How the data were processed

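Peaks of 3 biological replicates of 1 strain were used on dm6. Per the deposited file descriptions, relaxed peaks were called for each replicate and for the pool against the same control alignment, so an error in that control is shared, and these lists were the source of the IDR list. How reads were aligned, how peaks were called and where the IDR cut lay is not stated in any source used here. Column 7 holds the deposited signal and column 9 the deposited −log10 q-value. The genome was the NCBI release 6 assembly and the genes those of Ensembl release 115 without transposable elements. Chromosome names and ends of peaks were checked against it. All positions are 1-based.

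Values were computed with Python 3.11.15, SciPy 1.17.1, NumPy 2.4.6, matplotlib 3.10.9 and pandas 2.3.3. Overlaps needed at least 1 bp. Summits were classed as promoter (within 500 bp of a TSS), exon, intron or intergenic, in that order. Words were searched on both strands. Summit counting and the word search were tested on simulated data. The genes named are the 10 members, those nearest to or overlapping their summits, the 3 genes most like CHES-1-like and the family list. The members and lists were chosen with earlier results of these data known. Nothing in the labels ties the replicates to separate fly lines. An untagged control and chromatin accessibility were not analysed here, and their part in the peaks was not tested.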

Additional observations from a re-analysis of the deposited data

How the results depend on the processing

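Over 9 results, 42 alternatives were tried, of which 36 stayed within 1.5 times the count or within the Wilson interval of the share and 6 moved further. With 5000 bp upstream in place of 2000 bp, genes with an IDR summit rose from 4 to 7 of 10, genes with a leading summit to a mean of 6.33, genes with one in all 3 replicates to 6 and genes with a pooled summit of q under 0.05 to 7. This setting takes in the peaks upstream of slp2, croc and foxo. The count at q under 0.05 uses a part of the IDR list and is not separate from the IDR count. The share of summits with a forkhead word was 14.3% for GTAAACA alone, and the promoter share was 14.3% with a promoter of 250 bp. Both follow from narrower definitions. The AYAAAYA alternative shares words with RTAAAYA, so its staying within the interval is no separate support. Leaving out 1 replicate at a time, the mean number of genes with a leading summit was 3.5 to 4, genes with one in all remaining replicates stayed at 3, and IDR summits with a leading peak in all remaining replicates numbered 12 to 13. Merging overlapping peaks, chosen after seeing the data, gave 13 summits. No paired analysis was possible because there is 1 group. Shares over 14 summits have wide intervals, and the unknown read depth limits what the absence of a peak at FoxP or fd59A shows.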
